A study of Mus musculus with 27 samples.

Results

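The histone cluster genes of the mouse were followed across RNA sequencing of dorsal skin. They were chosen by symbol, as every gene of the count table whose name begins with Hist1h, Hist2h, Hist3h or Hist4h, which gave 70 of the 54532 genes listed. Of these, 56 lie on chromosome 13 (Hist1 by symbol), 10 on chromosome 3 (Hist2), 3 on chromosome 11 (Hist3) and 1 on chromosome 6 (Hist4). By the histone named in the symbol, 6 are H1, 20 H2A, 19 H2B, 12 H3 and 13 H4 genes. The annotation calls 67 of them protein coding and 3 pseudogenes, namely Hist1h2al, Hist1h2aj and Hist3h2bb-ps. Hist1h2al, at base 51202727 of chromosome 13, lies far from Hist1h1c, at base 23738808, and is a member by its symbol.

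The skin came from C3H mice, and the 27 libraries fall into 3 groups of 9. TDM skin received TDM10842, which the submitters describe as an agonist of the thyroid hormone receptor, in solvent, and Vehicle skin received that solvent alone, both as 2 applications of 60 µL at 0 and 24 h. Blank skin was left untreated. The labels give no amount of the compound and do not tell whether libraries came from separate animals. Each p-value here therefore reflects how much libraries vary within the 3 groups, and some of that variation may be technical. For each gene this spread was estimated over all 27 libraries together, so Blank libraries also enter the comparison of TDM with Vehicle.

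Histones are the proteins around which DNA is wrapped: H2A, H2B, H3 and H4 form the nucleosome core, and H1 binds the DNA that links nucleosomes. The clustered histone genes are made mainly in S phase, when new DNA has to be packaged, and are called replication dependent. Their messenger RNA normally has no poly(A) tail and ends just after a short stem-loop, which is bound by the protein SLBP. Some of them are also known to give transcripts that run past the stem-loop and carry a poly(A) tail. Library preparation used Illumina's TruSeq RNA kit, which captures RNA by its poly(A) tail.

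The stem-loop is printed here because it is the part of the transcript that sets these genes apart from other genes. The search took 16 letters, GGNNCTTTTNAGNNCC, in which the letters N of the stem had to pair, on the sense strand of GENCODE M21 transcripts (GRCm38). It was found in 44 of the 67 coding members (65.7%) and in 51 of all 21901 protein-coding genes (0.233%). The members held 6 different versions, and 26 of the 44 had the same one, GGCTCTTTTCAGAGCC. The windows below, 5′ to 3′, come from the transcripts of members described in the following paragraphs, with the stem-loop in capitals and 5 bases on each side in lower case.
Hist1h1c, chr13:23739507-23739532, plus strand: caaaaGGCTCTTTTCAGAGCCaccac
Hist1h2be, chr13:23585526-23585551, minus strand: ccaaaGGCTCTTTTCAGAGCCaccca
Hist1h3d, chr13:23576239-23576264, plus strand: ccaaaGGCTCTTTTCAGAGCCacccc
Hist2h3c2, chr3:96238480-96238505, minus strand: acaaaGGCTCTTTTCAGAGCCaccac
Hist1h4h, chr13:23531453-23531478, plus strand: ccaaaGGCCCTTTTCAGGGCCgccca
Hist1h4i, chr13:22040961-22040986, minus strand: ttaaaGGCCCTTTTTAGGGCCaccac
Hist2h4, chr3:96262934-96262959, minus strand: ctaacGGCCCTTTTTAGGGCCaacca

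These windows differ in how much annotated transcript follows them. After the stem-loop the annotation runs on for 840 bases in Hist1h1c, 1861 in Hist1h2be, 752 in Hist1h3d, 377 in Hist2h3c2, 330 in Hist1h4i and 1257 in Hist2h4. In Hist1h4h it stops 46 bases after it. The search found no such motif in the annotated transcripts of Hist1h2bc, Hist2h2be and the pseudogene Hist1h2al, which says only that these letters are not in those transcripts.

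Of the 70 members, 62 had at least 1 read in at least 1 library and 8 had none. At least 10 reads in all were counted for 57, and reads in every library for 21. The members together had 79905 reads, 0.0179% of the 446523441 reads in the table. Group totals per library ran from 15996657 to 17357395 reads in TDM, from 15412332 to 17001952 in Vehicle and from 15705220 to 17599066 in Blank. The 8 members without a read were Hist2h2aa1, Hist2h2aa2, Hist2h3c1, Hist2h3b, Hist2h2bb, Hist1h4b, Hist1h2ba and Hist1h2aa. A count of 0 over all libraries allows a level of up to 0.00672 CPM, the count scaled to a common library size (3 counts of the total, counting error only). For 5 of these, all in the Hist2 cluster, every 50-base stretch of the annotated transcript also occurs in another gene, and they are the only members of which this is true. A count of 0 for them is therefore uncertain, since reads may have been assigned to a near-identical copy or discarded. The share of 50-base stretches found nowhere else was 24.1% for Hist1h4b, 61.8% for Hist1h2ba and 76.2% for Hist1h2aa.

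A few genes held most of the reads. The 7 with the most reads had 88.1% of the total, and Hist1h1c, which encodes the linker histone H1.2, alone had 50.9%. By class, H1 genes took 53.5% of the reads, H2B 21.6%, H2A 12.8%, H4 8.98% and H3 3.2%. Levels of different genes can be compared only per length, for which the deposited FPKM was used, which divides the count by gene length and library size. Averaged over the 27 libraries, Hist1h1c stood at 58.2 FPKM and Hist1h2al at 55.9. After them came Hist1h2bc, an H2B gene, at 17.9 FPKM, and the H4 genes Hist1h4h at 12.2 and Hist1h4i at 10.55. The next 5 lay far lower on the FPKM scale. They were the H3 gene Hist2h3c2 at 2.70, the H2B gene Hist2h2be at 2.41, the H4 gene Hist1h4k at 1.59, Hist1h2be at 1.55 and the linker histone gene Hist1h1e at 1.54. The pseudogene Hist1h2al is only 339 bases long, 32.4% of its 50-base stretches are unique, and a microRNA gene overlaps it on the other strand, so its reads may belong to coding H2A genes. Hist1h2be and Hist1h1e overlap on the same strand, and reads in the overlap cannot be given to one of them with certainty.

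**Figure D1:**
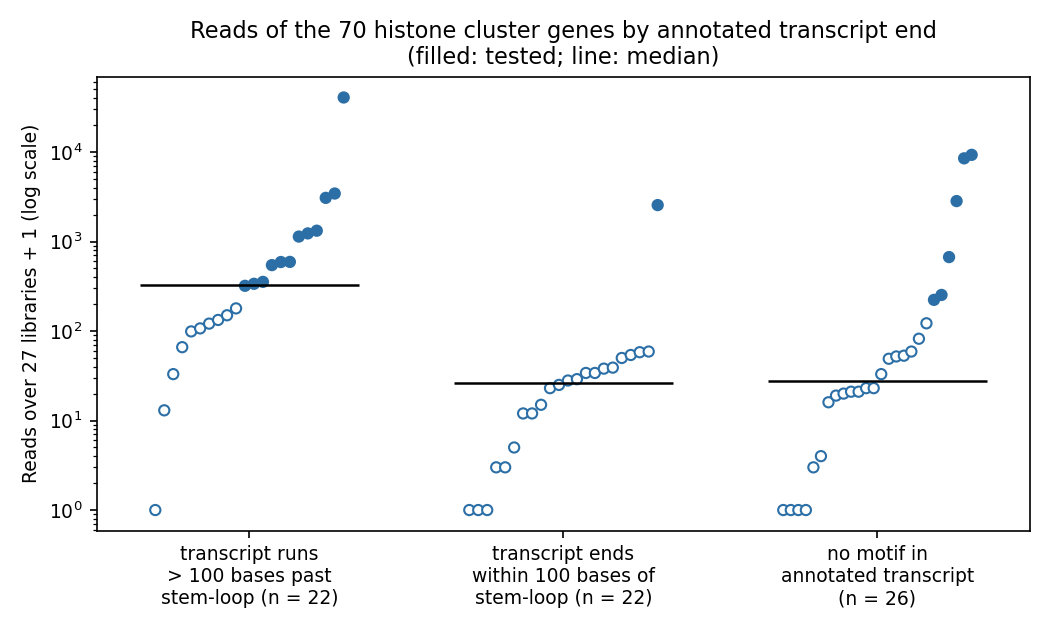
Reads of each histone cluster gene over the 27 libraries plus 1 (log scale), grouped by how the annotated transcript ends; each point is 1 gene, filled where it was tested, and the line is the median. The 22 genes whose transcript runs more than 100 bases past the stem-loop have a median of 327.5 reads and include 12 of the 19 tested genes, against 25.5 reads and 1 tested gene among the 22 whose transcript ends within 100 bases.

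Members with a long annotated stretch after the stem-loop had the higher median read count. For the 22 members with more than 100 bases after it, the median was 327.5 reads over all libraries (range 0 to 40675) and the median FPKM 0.5. For the 22 members that end within 100 bases of it, the medians were 25.5 reads (range 0 to 2552) and 0.109 FPKM. The 26 members without the motif had medians of 27 reads (range 0 to 9298) and 0.125 FPKM. Reads were found for 21, 19 and 22 genes of these sets in the order given. The sets also differ in how much of their sequence is unique, with median shares of unique 50-base stretches of 76.7%, 36.9% and 22.9% in the same order, and the part of this in the difference was not tested. Hist1h4h was the only one of the 22 short-ended members with enough reads to be tested, and it had 2552 reads against at most 58 for the others.

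RNAs that are known to lack a poly(A) tail were at very low levels. Of 14 such RNAs listed, among them Terc, the RNA part of telomerase, only Rn7sk was tested and 6 had no read in any library (Rmrp, Rn7s1, Rnu11, Rpph1, Snora73a and Snora73b). Their summed level lay between 0.749 and 1.999 CPM in TDM, between 1.25 and 2.79 in Vehicle and between 0.927 and 3.30 in Blank libraries. Rn7sk had a log2 fold change of -0.49 between TDM and Vehicle and did not pass the test.

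The 70 members summed to between 125 and 202 CPM in TDM libraries (median 161), between 152 and 232 in Vehicle libraries (median 197) and between 130 and 202 in Blank libraries (median 182). The groups overlapped. The lowest TDM library was replicate 8, and the highest library of all was Vehicle replicate 1. Without Hist1h1c the sums ran from 63.5 to 106 CPM in TDM (median 70.6), from 92.0 to 116 in Vehicle (median 101) and from 54.0 to 92.6 in Blank (median 81.0). On this measure 6 TDM libraries lay below the lowest Vehicle library, and the Vehicle and Blank ranges met only at their ends. The H4 genes summed to 14.1 ± 4.30 CPM in TDM, 20.2 ± 3.47 in Vehicle and 14.0 ± 2.90 in Blank (mean ± SD, n = 9 each). The H1 genes summed to 87.0 ± 16.2 CPM in TDM, 98.5 ± 19.1 in Vehicle and 102 ± 14.1 in Blank. In whole tissue, fewer cells that make a transcript and less of it per cell cannot be told apart.

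**Figure D2:**
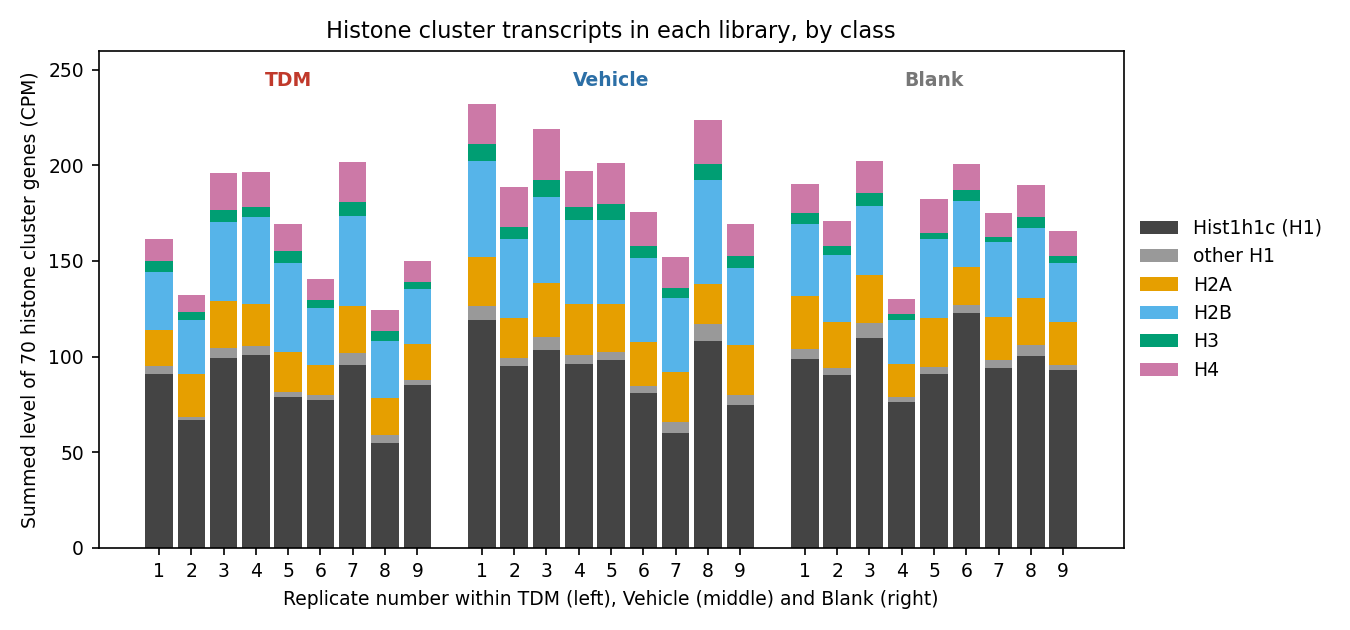
Summed level of the 70 histone cluster genes in each library in CPM, stacked by class with Hist1h1c apart; TDM libraries on the left, Vehicle in the middle, Blank on the right. Hist1h1c is the largest part of every bar, and the sums lie between 125 and 202 CPM in TDM, 152 and 232 in Vehicle and 130 and 202 in Blank.

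Skin samples differed in the tissue they held. The 14 skeletal muscle markers summed to between 19468 and 50359 CPM in TDM (median 29381), between 27669 and 88934 in Vehicle (median 55078) and between 28768 and 65955 in Blank (median 45478). None of the 14 was at 0, and 13 of them fell in TDM against Vehicle (median log2 fold change -1.02). Of all tested genes, 11.7% were called lower and 12.0% higher in this comparison. Markers of several other cell types moved as well in TDM against Vehicle. Of the lists below, only those of male germ cells (Tnp1) and retina (Crx) had a member at 0 in every library. Of 8 keratinocyte markers 5 fell and none rose (median log2 fold change -0.58), with sums of 4990 to 7584 CPM in TDM, 5532 to 14522 in Vehicle and 5561 to 9821 in Blank. Of 7 sebaceous gland markers 4 fell and 1 rose (median -0.80), with sums of 257 to 358 CPM in TDM, 447 to 1236 in Vehicle and 584 to 1179 in Blank. The 3 tested of 6 intestinal markers fell (median -4.37), with sums of 0.175 to 4.31 CPM in TDM, 1.08 to 143 in Vehicle, where replicate 3 was highest, and 0.966 to 33.8 in Blank. Other lists rose. Of 8 tested hair matrix and cortex markers 5 rose and none fell (median 1.84), with sums of 33.2 to 323 CPM in TDM, 8.44 to 123 in Vehicle and 9.72 to 55.2 in Blank. Of 8 fibroblast markers 5 rose and none fell (median 0.99), with sums of 6561 to 52261 CPM in TDM, 3610 to 33139 in Vehicle and 17520 to 36826 in Blank. Of 6 melanocyte markers 5 rose and none fell (median 1.35), with sums of 182 to 757 CPM in TDM, 59.2 to 541 in Vehicle and 93.9 to 259 in Blank. Of 6 T cell markers 2 fell, and of 6 mast cell markers 1 rose. None of 6 adipocyte, 5 tested erythroid and 3 tested B and plasma cell markers was called. The part of these lists in the histone results was not tested. Vehicle replicates 7 and 8 stood apart from the other Vehicle libraries in S phase genes, with sums of 1235 and 1234 CPM, against 371 to 755 in the other 7. Their summed histone levels were 152 and 224 CPM, the lowest and the second highest of the group. Markers of male germ cells, which have histone genes of their own, summed to at most 0.471 CPM in any library. Retina markers, examined because the labels' extraction protocol speaks of that tissue, summed to at most 1.92 CPM.

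Between TDM and Vehicle, 7 histone cluster genes fell and none rose among the 19 with enough reads to be tested. They were Hist1h3d and Hist2h3c2 (H3), Hist1h4h and Hist2h4 (H4), Hist1h2be and Hist2h2be (H2B) and the H2A pseudogene Hist1h2al. The test was edgeR's quasi-likelihood test over all 17232 genes that passed the filter, with a threshold of 0.05 on the p adjusted after Benjamini and Hochberg, and it called 11.7% of all genes lower and 12.0% higher in this comparison. The median log2 fold change of the 19 was -0.40, against 0.01 for all tested genes, and 17 of the 19 were negative. At an unadjusted p under 0.05 there were 11 members, against 37.3% of all genes. TDM and Vehicle libraries overlapped for each of the 19.

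Hist1h3d, an H3 gene on chromosome 13 (23575763 to 23577011, plus strand), had the largest change of the 19 between TDM and Vehicle. Its lowest, median and highest libraries were at 0.559, 0.999 and 1.38 CPM in TDM, against 0.703, 1.84 and 3.49 in Vehicle and 0.311, 0.920 and 1.62 in Blank. All 9 TDM libraries lay below the Vehicle median, and the Vehicle group reached much higher than the other groups. After scaling for composition (TMM), it averaged 0.978 ± 0.27 CPM in TDM and 2.11 ± 0.952 in Vehicle (SD, n = 9 each), 0.468-fold (log2 fold change -1.10 ± 0.29 SE, edgeR adjusted p = 0.00875).

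Hist1h4h is the H4 gene on chromosome 13 (23531050 to 23531519, plus strand) whose transcript ends close to the stem-loop. It was at 2.69, 3.79 and 6.75 CPM in TDM (lowest, median, highest), 4.79, 6.76 and 14.0 in Vehicle and 2.01, 4.91 and 8.47 in Blank. Again every TDM library was below the Vehicle median, and 1 Vehicle library, replicate 3, was far above the rest. Means were 4.22 ± 1.35 TMM-scaled CPM in TDM and 7.88 ± 3.01 in Vehicle (SD, n = 9 each), and the log2 fold change was -0.90 ± 0.23 (SE, edgeR adjusted p = 0.00802).

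The other H4 gene that fell, Hist2h4 on chromosome 3 (96261682 to 96263311, minus strand), was at 0.175, 0.999 and 1.36 CPM in TDM, 0.696, 1.53 and 2.73 in Vehicle and 0.739, 1.40 and 1.93 in Blank. Its change was near the threshold (log2 fold change -0.76 ± 0.28 SE, edgeR adjusted p = 0.0481). The call was lost when any 1 of 17 libraries was left out, with adjusted p-values between 0.0301 and 0.116 over the 27 such fits.

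Hist1h2be encodes an H2B, and its annotated span on chromosome 13 (23583670 to 23621124, minus strand) overlaps part of its neighbour Hist1h1e (23620629 to 23622558). Levels were 4.11, 5.72 and 8.27 CPM in TDM, 6.96, 8.63 and 11.5 in Vehicle and 3.45, 6.55 and 7.41 in Blank. TDM and Blank covered a similar range, and the Vehicle median lay above every library of either group. It averaged 5.65 ± 1.24 TMM-scaled CPM in TDM and 8.96 ± 2.13 in Vehicle (SD, n = 9 each; 0.632-fold, log2 fold change -0.66 ± 0.15 SE, edgeR adjusted p = 0.0049).

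The overlapping Hist1h1e, a linker histone gene, did not pass the threshold, at a log2 fold change of -0.70 ± 0.28 (SE, edgeR adjusted p = 0.0684). It was at 1.05, 2.13 and 4.37 CPM in TDM against 1.69, 3.35 and 6.03 in Vehicle and 1.55, 2.29 and 4.98 in Blank. Without TDM replicate 7, Vehicle replicate 6 or Blank replicate 3 its adjusted p was 0.0252, 0.0357 and 0.0463.

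Hist2h3c2, an H3 gene on chromosome 3 (96238108 to 96239127, minus strand), was at 1.35, 2.25 and 3.96 CPM in TDM, 2.92, 3.36 and 4.74 in Vehicle and 1.03, 2.33 and 4.17 in Blank. Only TDM replicate 7 reached the Vehicle range. The log2 fold change was -0.66 ± 0.21 (SE, edgeR adjusted p = 0.0212). Hist2h2be, an H2B gene on chromosome 3 (96221119 to 96223738, plus strand) whose sequence is wholly unique, was at 3.80, 5.43 and 6.94 CPM in TDM, 3.56, 7.33 and 10.6 in Vehicle and 4.54, 6.49 and 8.07 in Blank. The lowest library of all 3 groups was a Vehicle library. Its log2 fold change was -0.47 ± 0.15 (SE, edgeR adjusted p = 0.0238, and 0.0513 without Vehicle replicate 6).

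The pseudogene Hist1h2al on chromosome 13 (51202727 to 51203065, minus strand) changed least of the 7. It was at 11.9, 16.02 and 21.2 CPM in TDM, 15.2, 21.1 and 24.3 in Vehicle and 14.9, 20.1 and 24.8 in Blank, and 8 of 9 TDM libraries were below the Vehicle median. The log2 fold change was -0.34 ± 0.11 (SE, edgeR adjusted p = 0.0317). The call was lost without TDM replicate 1 (0.0582), 5 (0.0506), 6 (0.0642) or 8 (0.0511), or Vehicle replicate 4 (0.054).

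Of the 7 members with the most reads, Hist1h2al, Hist1h2be, Hist2h2be and Hist1h4h fell, as given above, and Hist1h1c, Hist1h2bc and Hist1h4i were not called. Hist1h1c was at 54.9, 84.9 and 101 CPM in TDM, 60.0, 96.2 and 119 in Vehicle and 76.2, 94.3 and 123 in Blank, with a log2 fold change between TDM and Vehicle of -0.20 ± 0.13 (SE, edgeR adjusted p = 0.263). Hist1h2bc was at 14.6, 16.5 and 27.8 CPM in TDM, 19.04, 24.4 and 28.9 in Vehicle and 11.5, 18.6 and 23.1 in Blank (log2 fold change -0.27 ± 0.15 SE, edgeR adjusted p = 0.182). For Hist1h1c the TDM libraries spread over most of the Vehicle range. For Hist1h2bc the TDM median lay below the lowest Vehicle library, though the highest TDM library came near the highest Vehicle library. Hist1h4i, an H4 gene, was at 4.43, 6.50 and 10.9 CPM in TDM, 6.84, 8.82 and 12.8 in Vehicle and 3.91, 7.12 and 8.87 in Blank (log2 fold change -0.40 ± 0.19 SE, edgeR adjusted p = 0.116). Hist3h2ba, described below with the comparison against Blank, had 0.92 ± 0.36 (SE, edgeR adjusted p = 0.0587). The other 7 tested members lay between a log2 fold change of -0.63 for Hist1h1d (edgeR adjusted p = 0.0902) and 0.02 for Hist1h2bg (0.963), and none of Hist1h1d, Hist1h2bh, Hist1h4k, Hist3h2a, Hist1h3i, Hist1h2bq and Hist1h2bg was called. Hist3h2a shares its strand and part of its span with Trim17, and 2.7% of the 50-base stretches of Hist1h2bq are unique, so their counts are uncertain.

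**Figure D3:**
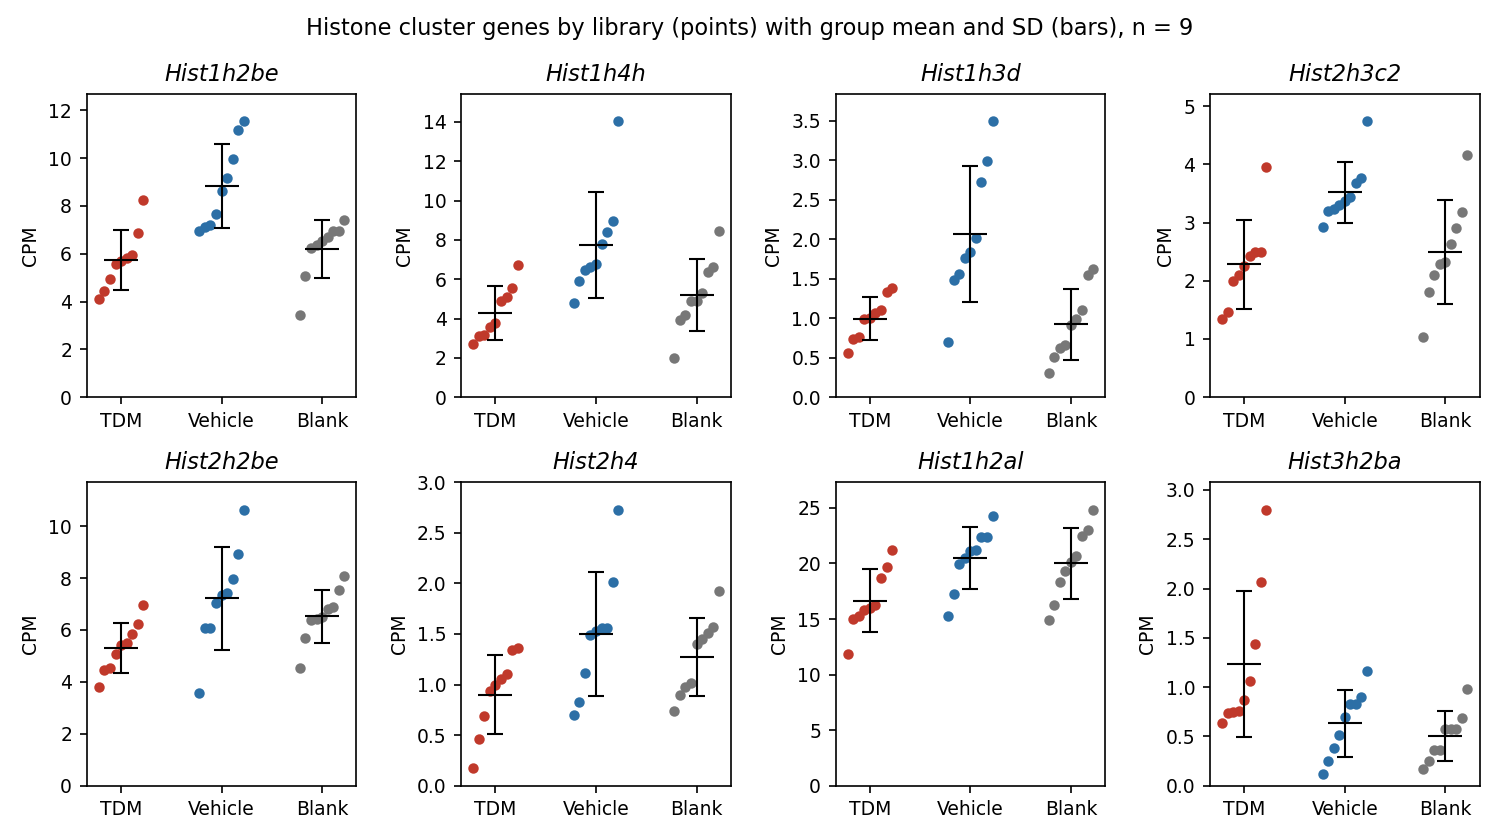
Level in CPM of the 7 histone cluster genes that fell in TDM against Vehicle and of Hist3h2ba; each point is 1 library (9 in TDM, 9 in Vehicle, 9 in Blank, sorted by value), and bars are the mean and SD before TMM scaling. TDM and Vehicle points overlap in every panel; for Hist1h3d all TDM libraries lie at or below 1.38 CPM while the Vehicle median is 1.84 CPM.

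Muscle markers moved with this result. A fit with the mean log2 CPM of the 14 muscle markers as a covariate called 0 of the 19 members lower, and their median log2 fold change in it was -0.01. In that fit Hist1h3d had -0.44 (adjusted p = 0.608), Hist1h4h -0.26 (0.624) and Hist1h2be -0.19 (0.523). The same fit called 115 genes higher and 100 lower of all 17232. The part of muscle in the fall of the histone genes was not tested beyond this. Without Vehicle replicates 7 and 8, 6 members were called lower (all of the 7 but Hist2h4, adjusted p = 0.0643) and Hist3h2ba was called higher. That fit called 14.9% of all genes lower and 17.3% higher, against 11.7% and 12.0% in the main fit.

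Genes of the machinery around the histone genes went the other way. Of 26 genes of DNA replication and S phase, none fell in TDM against Vehicle and 23 rose (median log2 fold change 0.84, by edgeR). Of all tested genes, 12.0% were called higher in this comparison. Rrm2, which encodes part of ribonucleotide reductase, had a log2 fold change of 1.17 ± 0.23 (SE, edgeR adjusted p = 0.00192), and Mcm7, a helicase subunit at replication forks, 0.76 ± 0.16 (0.00243). The call of Pole was lost when any 1 of 21 libraries was left out (adjusted p up to 0.0979) and that of Gins1 with any 1 of 6 (up to 0.0622). The sum of the 26 genes was 911 to 1659 CPM in TDM libraries, 371 to 1235 in Vehicle and 347 to 841 in Blank. TDM replicates 7 and 8, with the highest and the lowest histone sum of their group at 202 and 125 CPM, had S phase sums of 1470 and 1293 CPM and muscle sums of 50359 and 19468 CPM.

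The factors that make and process histone messenger RNA were among the genes that rose. Slbp encodes the protein that binds the stem-loop printed above, and it was at 34.0, 41.7 and 55.0 CPM in TDM, 20.1, 24.2 and 41.8 in Vehicle and 17.0, 22.5 and 37.2 in Blank. Every TDM library lay above the Vehicle median. It averaged 41.4 ± 6.52 TMM-scaled CPM in TDM and 27.8 ± 7.91 in Vehicle (SD, n = 9 each; log2 fold change 0.57 ± 0.14 SE, edgeR adjusted p = 0.00686). Npat, the coactivator of histone gene transcription, was at 21.97, 23.6 and 27.9 CPM in TDM, 14.0, 19.6 and 21.9 in Vehicle and 14.4, 17.3 and 23.9 in Blank. For Npat too every TDM library lay above the Vehicle median, and the lowest TDM and highest Vehicle libraries were nearly level. The log2 fold change of Npat was 0.34 ± 0.09 (SE, edgeR adjusted p = 0.0115), in a comparison in which 23.7% of all genes were called. Eri1, an exonuclease that trims histone messenger RNA, rose 1.44-fold (edgeR adjusted p = 0.00175) and Casp8ap2, a partner of Npat, 1.33-fold (0.00482). In all, 6 of the 16 genes of histone transcription and messenger RNA processing rose and none fell (median log2 fold change 0.18). Cpsf2 and Ncbp1 were the others that rose, and 12.0% of all tested genes were called higher. The call of Ncbp1 was lost when any 1 of 11 libraries was left out (adjusted p up to 0.0925), and that of Cpsf2 without Vehicle replicate 1, 2 or 3 (up to 0.0649).

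Of the histone variants whose genes lie outside the clusters and are, as a group, known as replication independent, 9 of 11 tested rose and none fell (median log2 fold change 0.30). The share of all tested genes called higher between TDM and Vehicle was 12.0%. H2afz, which encodes the variant H2A.Z, was at 169, 196 and 263 CPM in TDM, 90.1, 118 and 211 in Vehicle and 92.7, 115 and 169 in Blank (log2 fold change 0.60 ± 0.14 SE, edgeR adjusted p = 0.00527). H2afy2, a macroH2A gene, rose 1.80-fold (edgeR adjusted p = 0.0036). The 9 included H3f3a and H3f3b, which encode H3.3, and Cenpa, the centromeric H3. The calls of H1f0 and Cenpa were lost when any 1 of 19 and of 14 libraries was left out (adjusted p up to 0.0979 and 0.0912), that of H2afy without TDM replicate 1 or Vehicle replicate 1, 3 or 5 (up to 0.0801) and that of H3f3a without Vehicle replicate 1 (0.0678). Of 20 histone chaperones, 8 rose and none fell (median log2 fold change 0.25), Nasp losing its call without Vehicle replicate 1 (adjusted p = 0.0548); among the 8 were Supt16, a subunit of FACT (log2 fold change 0.58, edgeR adjusted p = 0.00217), and Rbbp4, a subunit of CAF-1 (0.38, 0.00245). With the muscle covariate, Mcm7 passed the test among the 10 genes of these lists given values here (adjusted p = 0.0387), and the other 9 had adjusted p-values of 0.083 or more.

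**Figure D4:**
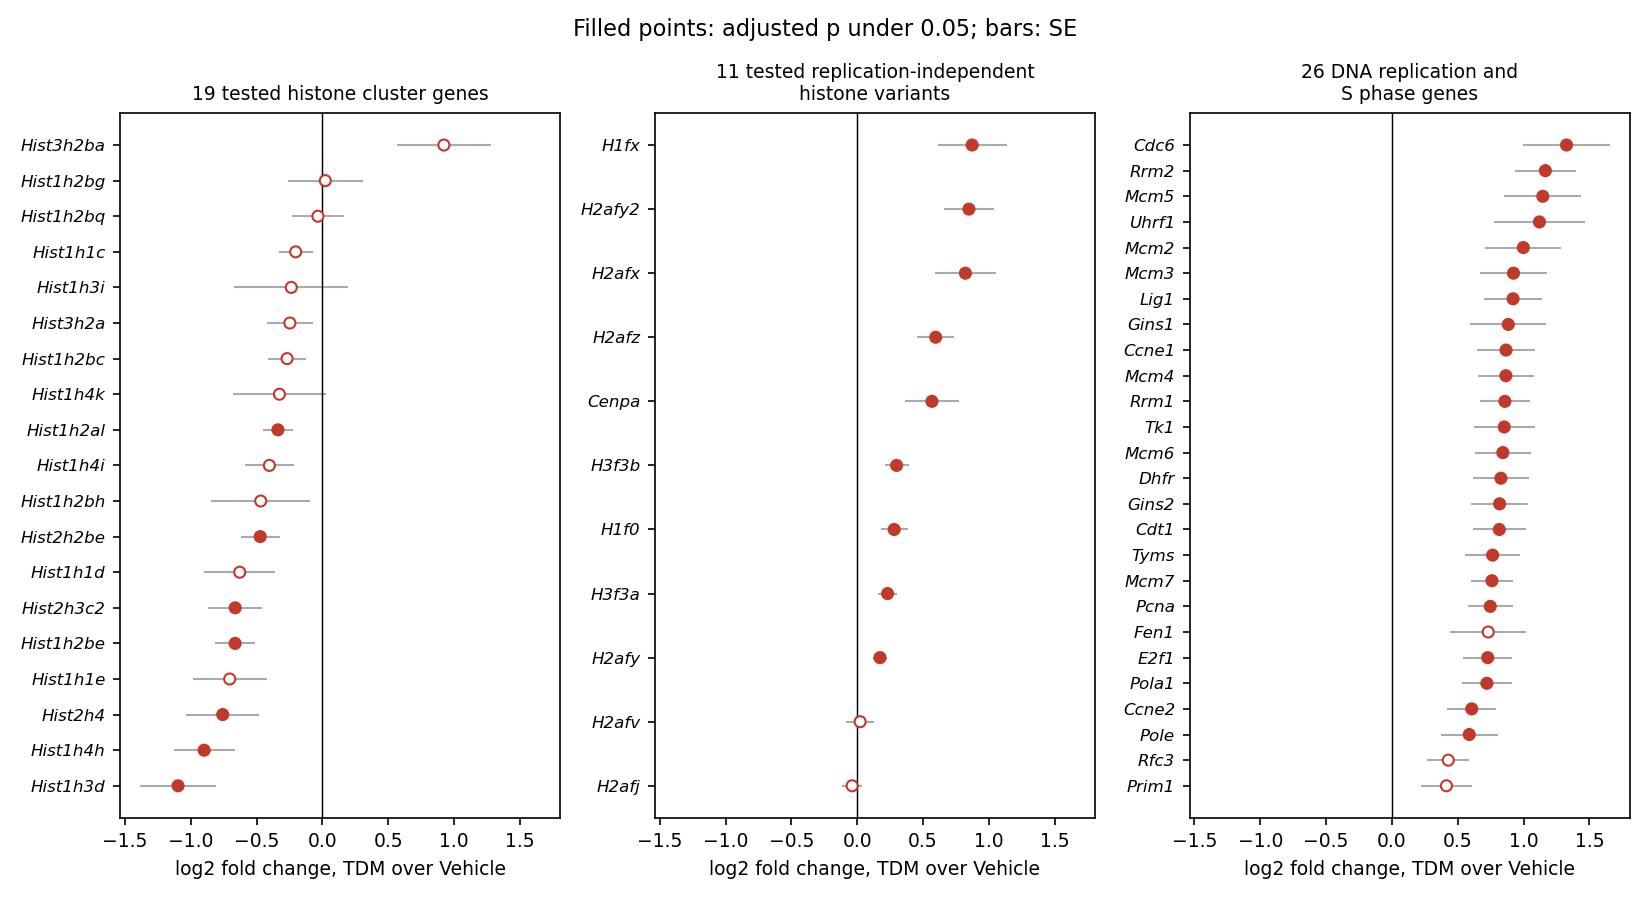
Log2 fold change of TDM over Vehicle with its SE (bars) for the 19 tested histone cluster genes, 11 histone variants and 26 DNA replication and S phase genes; filled points have an edgeR adjusted p under 0.05. Of the histone cluster genes 17 of 19 are negative, with 7 called, whereas all 26 replication genes are positive, with 23 called. Of all tested genes, 11.7% were called lower and 12.0% higher.

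Between Vehicle and Blank, Hist1h3d rose and no other tested member was called, where 2.76% of all genes were called, 0.894% higher and 1.86% lower. Hist1h3d averaged 2.11 ± 0.952 TMM-scaled CPM in Vehicle and 0.938 ± 0.468 in Blank (SD, n = 9 each; 2.23-fold, log2 fold change 1.16 ± 0.29 SE, edgeR adjusted p = 0.0348). The call was lost without Vehicle replicate 1, 3, 6 or 8, or Blank replicate 4, 6, 7 or 9, with adjusted p-values up to 0.0844, and with the muscle covariate (log2 fold change 0.87, adjusted p = 0.148). Of all tested genes, the fit without Blank replicate 7 called 1, and each other of these fits called 0. The loss of the call was therefore not particular to Hist1h3d. Of the 19 members, 17 had a positive log2 fold change, with a median of 0.33 against 0.02 for all tested genes, and 6 had an unadjusted p under 0.05, against 25.9% of all genes. Hist1h2be had 0.51 ± 0.15 (SE, edgeR adjusted p = 0.0599) and Hist1h4i 0.56 ± 0.19 (0.0789). The 14 muscle markers all had positive log2 fold changes in this comparison (median 0.46) and none was called.

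Between TDM and Blank, Hist3h2ba rose and no tested member fell, where 16.2% of all genes were called, 11.6% higher and 4.63% lower. It encodes an H2B, lies on chromosome 11 (58948920 to 58949533, plus strand), and is described here because of its values, since its mean was under 1 CPM. It was at 0.634, 0.872 and 2.80 CPM in TDM, 0.118, 0.696 and 1.17 in Vehicle and 0.174, 0.573 and 0.986 in Blank. All 9 TDM libraries lay above the Blank median. Its log2 fold change against Blank was 1.24 ± 0.36 (2.36-fold, SE, edgeR adjusted p = 0.0188, and 0.0606 without TDM replicate 5), and against Vehicle 0.92 ± 0.36 (0.0587). The median log2 fold change of the 19 members against Blank was -0.15, against -0.02 for all tested genes, 8 being positive and 11 negative, and 4 had an unadjusted p under 0.05, against 29.7% of all genes. Hist1h3d had 0.06 (edgeR adjusted p = 0.916) and Hist1h4h -0.32 (0.379). All 26 replication and S phase genes rose in TDM against Blank (median log2 fold change 1.23). The comparisons against Vehicle and against Blank share the TDM libraries, and those of TDM and Blank against Vehicle share the Vehicle libraries.

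The 43 members that had reads but too few to be tested held 1979 reads, 2.48% of the members' total. The highest of them, Hist1h2ae, had 178 reads over the 27 libraries, and the lowest tested member, Hist1h4k, had 222. Summed, the untested members were at 3.79, 4.78 and 8.09 CPM in TDM (lowest, median, highest), 2.35, 4.58 and 6.77 in Vehicle and 2.33, 3.65 and 4.01 in Blank. On the median TDM was highest and Blank lowest, whereas the sum over all members was lowest in TDM. Of the 43, 26 had a higher mean CPM in TDM than in Vehicle and 17 a lower one, and 33 were higher and 9 lower in TDM than in Blank. These means are before TMM scaling, and the directions were not tested or set against other genes with few reads. When no filter on low counts was used, 2 of them were called, both named after their values were seen. Of all 34892 genes in that fit, 4.3% were called higher in TDM against Blank and 4.13% in TDM against Vehicle. Hist1h2ae, an H2A gene, had 91 reads in TDM, 53 in Vehicle and 34 in Blank (edgeR adjusted p = 0.0277 for TDM against Blank, log2 fold change 1.35). Hist1h3b, an H3 gene, had 8 reads in TDM, 0 in Vehicle and 3 in Blank (adjusted p = 0.0485 for TDM against Vehicle), a difference that rests on very few reads.

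The promoters of the members share short motifs. RefSeq's promoter table (GRCm38.p6) matched 62 members, and the 150 bases before the start were searched on both strands. CCAAT, the letters read by the factor NF-Y, was found in 51 of 62 members (82.3%), against 24.5% of all 32851 promoters in the table. It was in all 6 H1, all 18 H2A and all 16 H2B promoters, in 8 of 10 H3 and in 3 of 12 H4 promoters. TATAAA was found in 24 (38.7%), against 7.57% of all promoters. The octamer ATTTGCAT was found in 10 (16.1%), which were 5 H2A and 5 H2B promoters, against 0.998%. Members are not independent in these counts. The stretches of Hist1h2ae and Hist1h2bg overlap and share the same octamer, and those of Hist1h2bq and Hist1h2br are identical. A match is a description of these letters and not of a bound site. The promoters of Hist1h3d, which had the largest called change between TDM and Vehicle, of Hist3h2ba, which was called higher in TDM against Blank, and of Hist1h4h, which holds none of these motifs, are printed 5′ to 3′, with each motif in capitals on either strand (TTTATA and ATTGG are TATAAA and CCAAT on the other strand).
Hist1h3d, chr13:23575613-23575762, plus strand: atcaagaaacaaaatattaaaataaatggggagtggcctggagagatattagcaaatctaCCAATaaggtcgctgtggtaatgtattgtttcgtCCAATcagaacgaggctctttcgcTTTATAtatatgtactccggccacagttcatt
Hist3h2ba, chr11:58948761-58948910, plus strand: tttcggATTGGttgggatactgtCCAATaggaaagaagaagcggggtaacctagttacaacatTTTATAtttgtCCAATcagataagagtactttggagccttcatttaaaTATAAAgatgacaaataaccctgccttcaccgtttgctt
Hist1h4h, chr13:23530894-23531043, plus strand: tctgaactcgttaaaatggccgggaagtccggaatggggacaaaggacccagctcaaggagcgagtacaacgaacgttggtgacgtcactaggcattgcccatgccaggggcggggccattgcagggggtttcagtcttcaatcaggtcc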

How the data were processed

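The authors deposited raw read counts per gene, per the file headers, for 27 libraries. FPKM columns, made by the authors, served for levels between genes. Bowtie 0.12.2 and mm9 are named in the submitters' processing notes, but all 70 members have the coordinates of GENCODE M21 (GRCm38), used here. How reads matching several genes were counted, and whether strand was used, is not stated in the sources used.

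Genes passing filterByExpr with a minimum count of 10 and a minimum total of 15 (17232 genes, 99.86% of reads) were scaled by TMM and entered, for all 27 libraries together, into robust quasi-likelihood fits of edgeR 4.0.16 under R 4.3.3, with Benjamini-Hochberg adjustment over all tested genes and a threshold of 0.05. Single-library values are CPM before TMM; means ± SD of single genes are after it, and those of summed classes before it. Standard errors were derived as the size of the log2 fold change divided by the root of the F statistic. Adjusted p-values in the report are from this test.

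The members and gene lists were chosen with earlier results of these data known. Named members were, per comparison, the 5 largest and 5 smallest called changes at a mean of at least 1 CPM, the 10 highest by FPKM and the highest of each class by CPM; of each related list, the 2 smallest p, with Slbp and Npat always. Other genes were named after their values were seen.

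Alternatives were DESeq2 1.42.0, limma 3.58.1 voom with quality weights, limma on log2(FPKM + 1) and log2(FPKM + 0.1), RLE scaling, no filter, a mean of at least 1 CPM, a fit to only the groups in question, replicate numbers as a block, muscle or Rn7sk covariates, and left-out libraries. The main edgeR fit of TDM against Vehicle was tested on simulated counts, in which far fewer genes changed than were called here. Replicates all differed by more than sampling noise (chi-square over its degrees of freedom at least 8.67 in 108 within-group pairs). Figures were drawn with matplotlib 3.10.9.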

Additional observations from a re-analysis of the deposited data

Results flagged for a closer look

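Of 93 sets of 9 libraries examined, 6 had a library set apart from the rest, its gap to the nearest library being more than 0.493 of the group's range (Dixon's 95% critical value). Chance gives about 1 in 20. Among the genes that fell in TDM, Hist2h3c2 was at 3.96 CPM in TDM replicate 7, the next TDM library being at 2.50 CPM. The same gene was at 4.74 CPM in Vehicle replicate 1, the next Vehicle library being at 3.77. Hist1h4h was at 14.0 CPM in Vehicle replicate 3, the next being at 8.97.

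Hist1h4k was at 1.00 CPM in TDM replicate 1, with the next at 0.649. Hist1h2bh, an H2B gene, was at 2.63 CPM in Blank replicate 1, with the next at 0.754. H2afz was at 169 CPM in Blank replicate 4, with the next at 131. That library also had the highest S phase sum of the Blank group, 841 CPM, and the lowest histone sum, 130 CPM.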

How the results depend on the processing

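For TDM against Vehicle, the number of members called lower was 7, where 11.7% of all genes were called lower. It was 0 with the muscle covariate, where no value of the members passed and 0.58% of all genes were called lower. With 1 library left out it was 5 to 8, against 8.66% to 15.3% of all genes. Under the other alternatives it was 5 to 10, against 5.16% to 19.3% of all genes. The number called higher was 0, and 1 with DESeq2 (Hist3h2ba), no filter (Hist1h3b) and without Vehicle replicates 7 and 8 (Hist3h2ba), and 0 to 1 with 1 library left out. Of all genes, 12.9%, 4.13% and 17.3% were called higher in the fits named, in that order. With 1 library left out this share was 7.85% to 16.6%. With the replicate number as a block, 8 members were lower and 1 higher (Hist3h2ba), against 11.6% lower and 11.3% higher of all genes. The labels do not say whether the numbers pair the libraries. Of 27 same-number pairs, 11 had a correlation of deviations over 0.1 (range -0.399 to 0.382). Only 3 of 27 libraries correlated best with their own number. Such correlations can fail to show a pairing but cannot exclude one. For Vehicle against Blank, the number higher was 1 (0.894% of all genes were called higher) and 3 with DESeq2 (3.7%). It was 0 with only the 2 groups (0.963%) and with no filter, where 1 of 34892 genes was called higher. It was also 0 with the muscle or the Rn7sk covariate or without Vehicle replicates 3, 7 and 8, where 0 of all genes were called higher. With 1 library left out it was 0 to 3 (3 without Vehicle replicate 7, where the share was 3.17%), and the number lower 0 to 0. For TDM against Blank, the number higher was 1 (11.6% of all genes were called higher), 0 at a mean of at least 1 CPM (12.1%) and 3 with the muscle covariate (12.3%). It was 2 with no filter (4.3%) or without Vehicle replicates 3, 7 and 8 (11.9%). With 1 library left out it was 0 to 1 (0 without TDM replicate 5, where the share was 9.55%). The number lower was 0 (4.63% of all genes were called lower) and 4 with voom (13.7%). It was 2 with only the 2 groups (8.07%) or without Vehicle replicates 3, 7 and 8 (8.06%). It was 1 with DESeq2 (6.74%), RLE (5.22%), a mean of at least 1 CPM (5.4%) or the replicate block (4.46%). With 1 library left out it was 0 to 2 (2 without Vehicle replicate 3, where the share was 6.16%). Members with a read numbered 62, and 21 when a read was required in every library.

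The sign turned in values none of which had been called. With the muscle covariate, log2 fold changes of TDM over Vehicle were 0.26 for Hist1h1c, 0.17 for Hist1h2bc, 0.14 for Hist1h4i and 0.074 for Hist1h1e. With it, TDM over Blank was 0.018 for Hist1h4h, 0.12 for Hist1h2be, 0.10 for Hist2h3c2 and 0.16 for Hist1h1e, and Vehicle over Blank was -0.045 for Hist1h2al, 0.021 for Eri1, 0.055 for Supt16 and 0.013 for Npat. With voom, TDM over Blank was -0.12 for Hist1h2bc and -0.080 for Hist1h4i, and TDM over Vehicle 0.070 for Hist1h4k (0.11 without Vehicle replicates 7 and 8). With the Rn7sk covariate, TDM over Blank was -0.039 for Hist1h3d and -0.074 for Hist1h4k. Without Vehicle replicates 7 and 8, and without 3, 7 and 8, Vehicle over Blank was -0.066 and -0.067 for H2afy2, -0.073 and -0.087 for H2afz, -0.030 and -0.031 for Rbbp4, -0.11 and -0.12 for Rrm2, -0.015 and -0.028 for Mcm7 and -0.054 and -0.065 for Slbp. With 1 library left out, Vehicle over Blank ran from -0.018 to 0.078 for Hist1h2al, -0.079 to 0.0075 for Npat and -0.12 to 0.033 for Supt16, and TDM over Blank from -0.053 to 0.21 for Hist1h3d and -0.0082 to 0.29 for Hist1h4k. The causes were not tested beyond these fits. Low counts limit the 43 untested members.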
